A study of Mus musculus with 2 samples.

Results

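DNA replication was described here through 41 genes, chosen by name as genes of S phase and of the replication machinery, among the 32285 genes of the count matrix. The cells were B16 F10, an established mouse melanoma line that makes melanin and that the labels call melanocytes. They had been plated sparsely, at 100 cells per cm2, and grown to day 7 in DMEM with 10% serum, and a cytometer had then split them by side scatter into fractions of low pigment and high pigment. Each fraction gave 1 single-cell library, in which the 3' end of polyadenylated RNA was read and each RNA molecule carried a unique molecular identifier (UMI). Nothing in the labels ties a library to more than 1 culture, both fractions shared the line, the medium and the day, and no treatment or genetic change was named. The fraction, its sort and its library preparation therefore cannot be told apart, differences lack a replicate check, and every interval is a 95% interval of counting error alone. The comparison asks which of the genes differed between the fractions among cells of the same phase call, and which differed only because the fractions held unequal shares of cells in G1, S and G2M. Of the 41 genes, 40 counted as measured, with a mean over both libraries of at least 10 CPM (counts scaled to 1000000 UMIs), and Ung did not.

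Replication begins when origins marked in G1 are loaded with the MCM2-7 helicase, which Cdc45 and the GINS complex then switch on in S phase. DNA polymerases copy the strands behind the helicase, held by the sliding clamp PCNA, while ribonucleotide reductase and thymidylate synthase supply deoxynucleotides and histone chaperones package the new DNA. Many of these genes are targets of E2F transcription factors and their RNA is highest around the start of S phase, so that the RNA of a mixed population depends on how many of its cells are in S phase. In pigment cells and melanoma the same genes serve as a readout of proliferation.

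The low pigment library held 1900 cells with 32437194 UMIs and a median of 16019.5 UMIs per cell, and the high pigment library held 2136 cells with 28848691 UMIs and a median of 12557. No barcode of the authors' cell table was in both libraries. The 8 melanocyte markers summed to 11549 CPM in low pigment and 15002 CPM in high pigment cells, with Sox10 the lowest at 118 CPM in low pigment cells. Summed fibroblast markers stood at 1.45 and 2.46 CPM, leukocyte markers at 2.74 and 0.139 CPM, and endothelial markers at 22.6 and 2.98 CPM, nearly all of the last from Pecam1. The defining genes Adgre1, Tyrobp and Emcn had 0 UMIs in both libraries, which allows up to 0.0925 CPM in low pigment and 0.104 CPM in high pigment cells. Keratinocyte and erythroid markers summed to at most 0.185 CPM. CPM is a share of a library's RNA, so less RNA of a gene and more RNA of other genes cannot be told apart.

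The authors' phase calls differed in share between the fractions. In the low pigment library 39.4% of cells were called G1 (exact Clopper-Pearson interval 37.2 to 41.7), 37.1% S (34.9 to 39.3) and 23.5% G2M (21.6 to 25.4). In the high pigment library the shares were 33.1% (31.2 to 35.2), 22.4% (20.7 to 24.3) and 44.4% (42.3 to 46.6). Cells called S made up 38.3% of the low pigment library's UMIs, and G2M cells 49.0% of the high pigment library's. Median UMIs per cell in G1, S and G2M calls were 13817, 16663 and 20280 in low pigment and 10466, 11753 and 14087 in high pigment cells, and the part of this depth gap in the calls was not tested beyond thinning the counts. A phase call is a range on 2 scores rather than a type: 254 low pigment cells (13.4%) and 435 high pigment cells (20.4%) lay within 0.05 of a boundary between calls. The authors' scored genes were not given in the sources used here. Across the 4036 cells, an S score rebuilt from the 41 genes correlated with the authors' S score at Pearson r = 0.948, and a score from 77 other replication genes at r = 0.794. Both scores share their cells and depth with the authors' score, and the value is a description. The calls may therefore rest on the genes described here. Neither the order of a gene's levels from phase to phase nor the closeness of the fractions' summed levels within a call is a finding.

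Summed over all cells, low pigment RNA held 3465 CPM of the 41 genes and high pigment RNA 2770 CPM, a ratio of 0.800 (0.792 to 0.807). The difference was not spread evenly over the phases. In G1 calls the sums were 1678 and 1672 CPM, a ratio of 0.997 (0.975 to 1.02), and in S calls they were 5180 and 5025 CPM, a ratio of 0.970 (0.957 to 0.983). In G2M calls they were 3254 and 2478 CPM, 1.31-fold lower (1.29 to 1.33) in high pigment cells. When each phase was given the same weight in both libraries, namely the mean of the 2 libraries' shares of UMIs in that phase, the summed RNA was 1.12-fold lower (1.11 to 1.13). After thinning each cell to 7500 UMIs, which no cell of the table fell short of, a median cell called G1, S and G2M held 11, 39 and 23 UMIs of the 41 genes in the low pigment and 12, 39 and 18 in the high pigment library. Before thinning these medians were 20, 86 and 63 UMIs in low pigment and 17, 61 and 35 UMIs in high pigment cells.

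**Figure D1:**
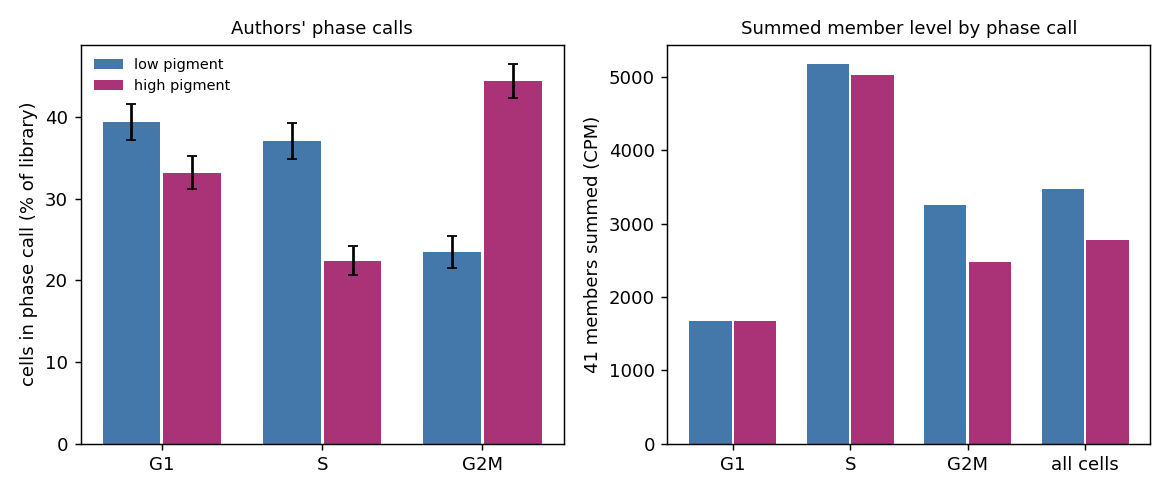
Share of cells in each phase call (percent, with 95% Clopper-Pearson intervals) and summed level of the 41 genes (CPM) in each phase call and in all cells, for the low pigment and the high pigment library. S calls were 37.1% and 22.4% of cells, while the sums lay close together in G1 and S and stood 1.31-fold apart in G2M.

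A gene was counted as lower or higher by size alone, when 1 library had at least 25% more of it than the other, a log2 ratio of 0.32 or more in size, called the limit here. Over all cells 19 of the 40 measured genes were lower in high pigment cells, beside 23.4% of the 7849 measured genes of the matrix, and 2 were higher, beside 10.9%. With phase shares held equal 6 were lower, again beside 23.4%, and 5 were higher, beside 10.4%. The median log2 ratio of high over low pigment was −0.30 for the 40 genes over all cells, where all measured genes had −0.08, and −0.09 with phase shares held equal, where all measured genes also had −0.09. Of the 19 lower genes, 13 (68.4%) were no longer past the limit once phase shares were equal. Among the 1819 other lower genes of the matrix this held for 91 (5.0%). The authors' calls may rest on the 41 genes, so this contrast is a description. With phases called from the other replication genes instead, 12 of the 13 were past the limit at equal shares.

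**Figure D2:**
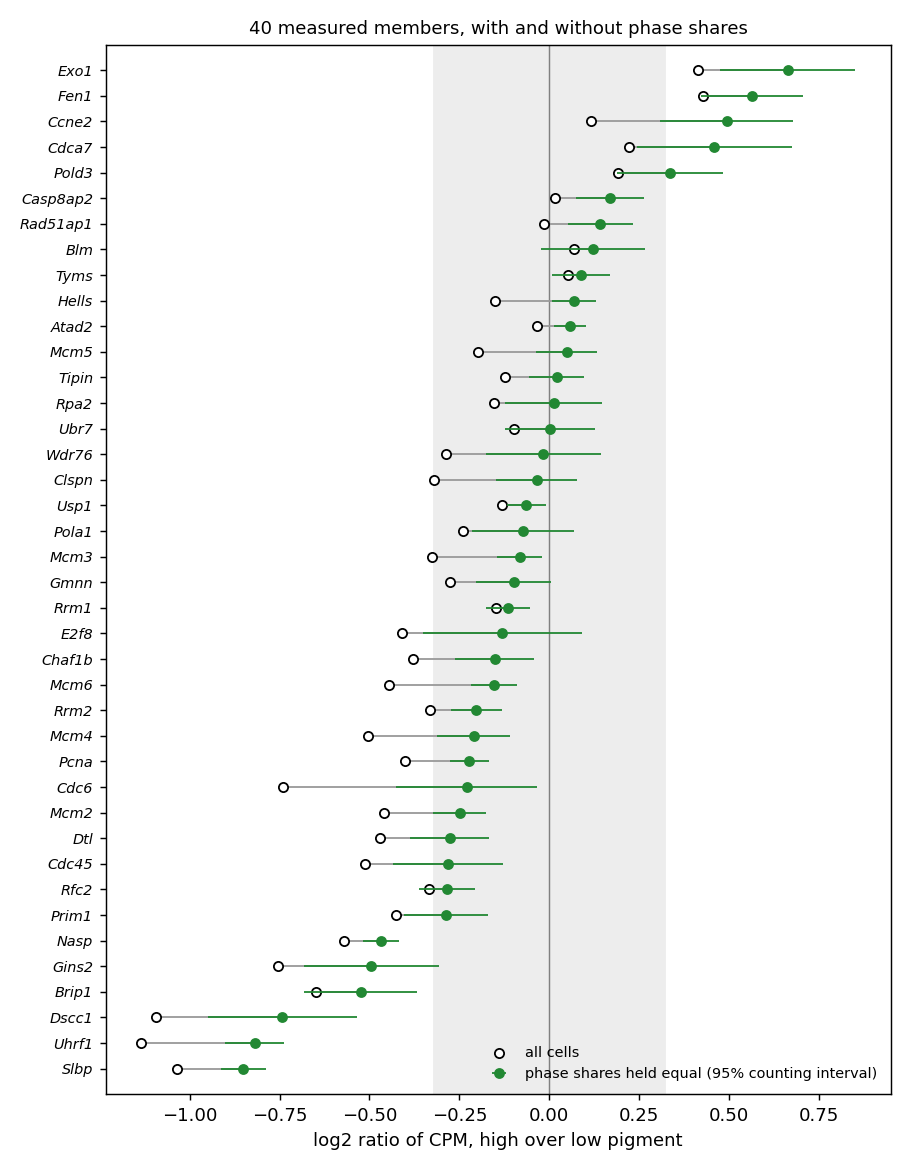
Log2 ratio of high over low pigment CPM (x axis) for each of the 40 measured genes (rows), over all cells (open circles) and with phase shares held equal (filled circles, bars give the 95% counting interval). The grey band lies within the limit of 0.32 to either side; each filled circle lies to the right of its open circle, and 13 open circles left of the band have their filled circle inside it.

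The part of each difference that came from phase shares, the all-cell log2 ratio minus the ratio with shares held equal, was below 0 for all 40 measured genes under the authors' calls. It ran from −0.51 for Cdc6 to −0.03 for Rrm1, with a median of −0.18. With phases called from the other replication genes the share part was below 0 for 16 genes and above 0 for 24, with a median of 0.01, and with each gene left out of its own calls it was below 0 for 35 and had a median of −0.12. Within phase calls the genes went different ways. In G1 calls 4 of 40 were lower, beside 25.8% of all measured genes, and 16 were higher, beside 12.4%, with a median log2 ratio of 0.20 where all measured genes had −0.09. The G1 median was below 0 when phases were called again with scanpy, at −0.13 from the 41 genes, −0.16 with each gene left out of its own calls and −0.39 from the other replication genes. In S calls 6 were lower, beside 22.3%, and 6 were higher, beside 13.6%, with a median of 0.01. In G2M calls 22 were lower, beside 25.8%, and 1 was higher, beside 11.3%, with a median of −0.43 where all measured genes had −0.09. Cells called G2M also scored lower on both of the authors' scores in the high pigment library, with median S scores of −0.0216 in low pigment and −0.0956 in high pigment cells and median G2M scores of 0.216 and 0.153. The part of these scores in the G2M values was not tested.

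**Figure D3:**
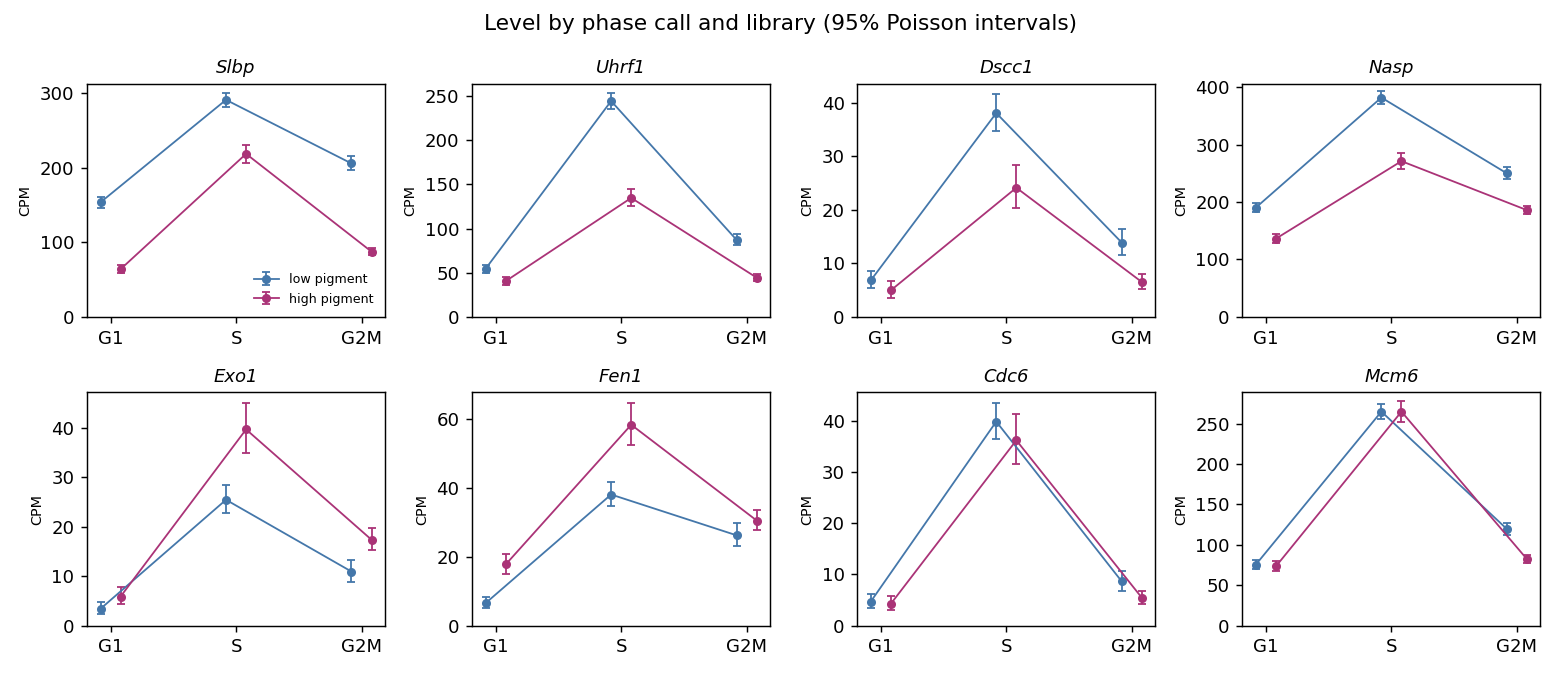
Level in CPM (y axis, each gene on its own scale from 0, bars give 95% Poisson intervals) by phase call (x axis) in low pigment and high pigment cells for Slbp, Uhrf1, Dscc1, Nasp, Exo1, Fen1, Cdc6 and Mcm6. The high pigment points lie below the low pigment points in each phase for the first 4 genes and above them for Exo1 and Fen1, while those of Mcm6 meet in S and part in G2M.

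The promoters of 3 genes were looked up because they mark the ends of the result among the measured genes. Slbp had the lowest ratio at equal shares, Exo1 the highest, and Cdc6 the largest share part. RefSeq promoter sequence (build GRCm38.p6) covered 31 of the 41 genes, Exo1 not among them, and the 250 bases before the start of transcription were searched on both strands for the E2F motifs TTTCCCGC and TTTGGCGC and for the CCAAT box. Sequences are 5′ to 3′ on the strand of the gene, and capitals mark motif matches. The Slbp line is chr5:33652575-33652824, minus strand, with 3 CCAAT boxes. The Cdc6 line holds the last 169 bases before the RefSeq start, chr11:98907982-98908150, plus strand, with GCGGGAAA, the reverse complement of TTTCCCGC. The rest of its 250 bases was left out because it reaches into an untranslated region of another Cdc6 transcript. GENCODE M21 starts the gene at chr11:98907801, so the printed stretch lies inside the gene as annotated there.
Slbp: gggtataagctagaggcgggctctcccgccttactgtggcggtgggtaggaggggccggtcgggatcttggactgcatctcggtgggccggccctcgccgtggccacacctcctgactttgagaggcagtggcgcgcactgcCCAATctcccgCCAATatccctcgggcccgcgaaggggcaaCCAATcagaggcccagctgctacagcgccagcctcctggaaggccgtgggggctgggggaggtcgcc
Cdc6: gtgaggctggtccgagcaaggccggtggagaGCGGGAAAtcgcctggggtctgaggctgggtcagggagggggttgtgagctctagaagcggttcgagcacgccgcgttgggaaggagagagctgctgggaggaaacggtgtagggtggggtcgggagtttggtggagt
The first base of the Slbp matches lies 108, 97 and 67 bases before the start, and that of the Cdc6 match 138 bases before it. Either E2F motif was found in 1.3% of the 32851 promoters of the table and in 8 of the 31: Casp8ap2, Cdc6, Cdca7, Dtl, Hells, Mcm5, Mcm6 and Pola1. A CCAAT box was found in 33.8% of all promoters and in 22 of the 31. The percentages are of promoter entries, whereas the 8 and the 22 count genes with a match in any entry, so the units differ. Among genes with a promoter entry, CCAAT was found in 4 of 4 that were lower with phase shares held equal, 0 of 3 that were higher, 9 of 11 that were lower over all cells alone and 9 of 12 that were past the limit in neither comparison. In the same order, an E2F motif was found in 0 of 4, 1 of 3, 3 of 11 and 4 of 12. The unmeasured Ung, which also has an entry, held neither motif. These are matches of letters, not sites of binding. The groups of 4 and 3 genes are too small to compare, and a link between motif and direction was not tested.

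The genes that licensed origins and formed the helicase were 10 of the 41. Over all cells 8 of them were lower and 0 higher in high pigment cells, and with phase shares held equal 1 was lower and 0 were higher, at a median log2 ratio of −0.22. Of all measured genes 23.4% were lower in either comparison, and 10.9% and 10.4% were higher. Values that follow are in the order G1, S and G2M, and gene positions are on mm10. Of the MCM2-7 ring that unwinds DNA, 5 subunits were among the 41 genes. Mcm2 had 74.1, 185 and 100.4 CPM in low pigment and 64.4, 170.5 and 71.3 CPM in high pigment cells. Mcm3 had 71.5, 257 and 118 CPM in low pigment and 68.8, 250.4 and 104 CPM in high pigment cells. For both, the gap was smallest in S calls. Mcm4 had 32.8, 112 and 39.2 CPM in low pigment and 32.1, 92.2 and 34.0 CPM in high pigment cells, with its largest gap in S. Mcm6 stood at 75.6, 265 and 119.6 CPM in low pigment and 73.5, 265 and 82.3 CPM in high pigment cells, nearly level in G1 and S and lower in high pigment G2M calls. Over all cells the log2 ratios of these 4 subunits were −0.46, −0.33, −0.50 and −0.44, each past the limit. With phase shares held equal they were −0.25, −0.08, −0.21 and −0.15, none past it. Mcm5 was at 84.1 and 73.3 CPM over all cells and at a log2 ratio of 0.05 with shares held equal. The subunit outside the 41 genes, Mcm7, was at 81.1 and 55.3 CPM over all cells and did pass the limit with shares held equal, at 1.27-fold lower (1.19 to 1.35).

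Cdc6, which loads the MCM ring onto origins in G1, had the largest share part of the measured genes, and its promoter is shown above. It was present at 4.70, 39.8 and 8.63 CPM in low pigment and 4.27, 36.2 and 5.45 CPM in high pigment cells. Over all cells it was 1.67-fold lower (1.46 to 1.91) in high pigment cells, and with shares held equal 1.17-fold lower (1.02 to 1.34). Dtl, the substrate receptor of the ubiquitin ligase that removes the licensing factor Cdt1 in S phase, had 19.9, 89.3 and 54.3 CPM in low pigment and 21.5, 81.4 and 34.8 CPM in high pigment cells. Cdc45, the factor that turns the loaded ring into a running helicase, had 7.09, 50.6 and 26.8 CPM in low pigment and 8.88, 44.1 and 17.6 CPM in high pigment cells. These genes were 1.21-fold and 1.22-fold lower with shares held equal, near but not past the limit, and for both the gap was wide in G2M calls and small in S calls. Gins2 (chr8:120578633-120589304, minus strand), a subunit of the GINS complex that completes the active helicase, was the member of this group that passed the limit within phases. It had 11.4, 35.7 and 14.4 CPM in low pigment and 12.6, 22.5 and 8.78 CPM in high pigment cells and was 1.41-fold lower (1.24 to 1.60) with shares held equal, with high pigment cells lower in S and G2M and not in G1. It overlaps Gse1 on the opposite strand. Gmnn, the inhibitor of licensing outside G1, was at 57.9 and 47.8 CPM over all cells and at −0.10 (log2) with shares held equal.

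Of the 8 genes for polymerases, clamp and flap processing, 4 were lower and 1 was higher over all cells, beside 23.4% and 10.9% of all measured genes. With shares held equal 1 was lower and 2 were higher, beside 23.4% and 10.4%. Pcna, the sliding clamp, had 137, 332 and 199.6 CPM in low pigment and 121, 313 and 146 CPM in high pigment cells. Rfc2, a subunit of the loader that places the clamp, had 65.7, 129.6 and 116 CPM in low pigment and 60.0, 118 and 82.2 CPM in high pigment cells. Prim1, the primase subunit that makes the RNA primer, had 19.9, 72.3 and 50.9 CPM in low pigment and 17.7, 67.7 and 34.2 CPM in high pigment cells. All of them were lower past the limit in high pigment G2M calls and less so in G1 and S, and with shares held equal they were 1.17-fold, 1.22-fold and 1.22-fold lower. The last 2 values lie close to the limit. Pcna has named pseudogenes in the annotation, and the treatment of reads that match a copy was not given in the sources used here. Pola1, the catalytic subunit of the primase-bound polymerase, and Rpa2, a subunit of the single-strand binding complex, were at 30.6 and 25.9 CPM and 33.0 and 29.7 CPM over all cells and within the limit.

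Dscc1 (chr15:55076099-55090491, minus strand), part of the alternative clamp loader used in sister chromatid cohesion, had 6.82, 38.1 and 13.9 CPM in low pigment and 4.96, 24.1 and 6.51 CPM in high pigment cells. It was past the limit in each phase call, but its G1 values rest on 74 low pigment and 43 high pigment UMIs, with a ratio interval of 0.488 to 1.07 that includes 1. Over all cells it was 2.13-fold lower (1.85 to 2.46), and with shares held equal 1.67-fold lower (1.45 to 1.93). Fen1 (chr19:10199132-10204169, minus strand), the nuclease that trims flaps between Okazaki fragments, went the other way. It had 6.54, 38.1 and 26.2 CPM in low pigment and 17.8, 58.3 and 30.5 CPM in high pigment cells, and was 1.35-fold higher (1.22 to 1.48) over all cells and 1.48-fold higher (1.34 to 1.63) with shares held equal. Its G1 values rest on 71 low pigment and 154 high pigment UMIs, and it overlaps Tmem258 on the opposite strand. Pold3, an accessory subunit of the lagging strand polymerase, had 12.6, 33.6 and 23.7 CPM in low pigment and 14.9, 50.2 and 24.8 CPM in high pigment cells. It was 1.14-fold higher in high pigment over all cells and 1.26-fold higher with shares held equal, just past the limit. At equal shares it stayed past the limit in 7 of the 12 alternatives that could move its ratio.

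Of the 3 genes of nucleotide supply, 1 was lower past the limit over all cells, beside 23.4% of all measured genes, and 0 were past it with shares held equal. Within phases 2 were higher past it in G1 calls, beside 12.4%, and 2 lower in G2M calls, beside 25.8%. Of 10 other nucleotide supply genes, 4 were lower past the limit with shares held equal, beside 23.4%, at a median log2 ratio of −0.23. Rrm2, the regulated subunit of ribonucleotide reductase, had 36.4, 196 and 147 CPM in low pigment and 51.5, 191 and 95.6 CPM in high pigment cells and moved from 1.26-fold lower over all cells to 1.15-fold lower with shares held equal. Its large subunit Rrm1 had 67.7, 203 and 206 CPM in low pigment and 82.0, 225 and 146 CPM in high pigment cells. Tyms, thymidylate synthase, had 41.2, 106 and 102 CPM in low pigment and 56.5, 127 and 87.1 CPM in high pigment cells. All 3 genes had higher levels in high pigment cells in G1 calls and lower levels in G2M calls. The S level of Rrm1 in low pigment cells was under its G2M level. S was the highest phase for the other 39 measured genes there and for all 40 in high pigment cells. The calls may rest on these genes, so this order is a description.

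None of the 4 genes of checkpoint and fork protection passed the limit over all cells or with shares held equal. Of all measured genes 23.4% were lower in either comparison, and 10.9% and 10.4% were higher. Clspn, the adaptor that carries the replication checkpoint signal to Chek1, had 11.2, 87.8 and 42.1 CPM in low pigment and 16.6, 93.5 and 30.4 CPM in high pigment cells. Usp1, which removes ubiquitin from Pcna, had 84.9, 276 and 237 CPM in low pigment and 109.9, 289 and 184 CPM in high pigment cells. Casp8ap2, a nuclear protein needed for histone gene expression, had 41.1, 88.8 and 54.7 CPM in low pigment and 33.6, 114 and 61.2 CPM in high pigment cells. The first pair was higher in high pigment G1 calls and lower in G2M calls, and Casp8ap2 was lower in G1 and higher in S and G2M. Tipin, a fork protection factor, was at 101 and 93.2 CPM over all cells.

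Repair genes held differences in both directions. Exo1 (chr1:175880581-175913489, plus strand), a nuclease of mismatch repair and end resection, had 3.41, 25.4 and 10.9 CPM in low pigment and 5.88, 39.6 and 17.3 CPM in high pigment cells. Of the 40 measured genes it alone was higher past the limit in all 3 of the authors' phase calls. Its G1 values rest on 37 low pigment and 51 high pigment UMIs, and its G1 log2 ratio was 0.16, within the limit, with Exo1 left out of its own calls. Among G1 calls it was at 2.29 CPM in cluster 3, 10.8 CPM in cluster 0 and 3.08 CPM in low pigment cluster 1, so that the high pigment clusters lay on both sides. It was 1.33-fold higher (1.17 to 1.51) over all cells and 1.58-fold higher (1.39 to 1.80) with shares held equal. Brip1 (chr11:86058138-86201193, minus strand), a helicase that works with Brca1, had 10.7, 43.4 and 33.1 CPM in low pigment and 12.5, 32.9 and 16.8 CPM in high pigment cells, and was 1.57-fold lower (1.41 to 1.74) over all cells and 1.44-fold lower (1.29 to 1.60) with shares held equal. High pigment cells had less Brip1 in S and most clearly in G2M calls, and slightly more in G1. Rad51ap1, an accessory factor of homologous recombination, had 13.5, 111 and 73.2 CPM in low pigment and 27.5, 131 and 63.7 CPM in high pigment cells, and Blm, a helicase that resolves recombination intermediates, stood at 26.3 and 27.6 CPM over all cells. Neither passed the limit with shares held equal. Ung, the glycosylase that removes uracil from DNA, fell under the CPM filter and rests on 440 low pigment and 158 high pigment UMIs. It was at 13.6 and 5.48 CPM over all cells, 2.02-fold lower (1.67 to 2.43) with shares held equal, and had 10.0, 23.7 and 4.04 CPM in low pigment and 4.61, 8.75 and 4.60 CPM in high pigment cells.

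Of the 8 genes for chromatin and histone supply, 3 were lower and 0 higher with shares held equal, beside 23.4% and 10.4% of all measured genes. Slbp (chr5:33634952-33652574, minus strand), which binds the stem loop of replication-dependent histone mRNAs, had the lowest ratio with shares held equal among the measured genes, and its promoter with 3 CCAAT boxes is shown above. It had 154, 291 and 206 CPM in low pigment and 64.0, 219 and 87.5 CPM in high pigment cells. In high pigment cells it was 2.05-fold lower (1.96 to 2.14) over all cells and 1.80-fold lower (1.73 to 1.88) with shares held equal, and its gap was narrowest in S calls. With Slbp left out of its own calls the S log2 ratio was −0.26, within the limit. Uhrf1 (chr17:56303321-56323486, plus strand), which brings the maintenance DNA methyltransferase to newly copied DNA, had 54.5, 244 and 87.1 CPM in low pigment and 40.5, 135 and 44.4 CPM in high pigment cells, 2.19-fold lower (2.08 to 2.32) over all cells and 1.76-fold lower (1.67 to 1.87) with shares held equal. Nasp (chr4:116601052-116627941, minus strand), a chaperone of free H3 and H4 histones, had 190.3, 382 and 249.8 CPM in low pigment and 136, 271 and 186 CPM in high pigment cells and was 1.38-fold lower (1.34 to 1.43) with shares held equal. Nasp differed by nearly the same factor in each phase call, and it has a named pseudogene in the annotation.

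Chaf1b, a subunit of the assembly factor that deposits histones behind the fork, had 27.9, 81.1 and 43.0 CPM in low pigment and 27.2, 79.9 and 31.6 CPM in high pigment cells. It was 1.30-fold lower over all cells and 1.11-fold lower with shares held equal. The remaining chromatin genes stayed within the limit in both comparisons. Hells, a chromatin remodeller, was at 162 and 146 CPM over all cells, and Atad2, a bromodomain ATPase of replicating chromatin, at 285 and 278 CPM. Ubr7, a ubiquitin ligase of chromatin, was at 37.4 and 34.9 CPM and Wdr76 at 24.2 and 19.8 CPM. With shares held equal their log2 ratios lay between −0.02 and 0.07.

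Both Ccne2, the cyclin that activates Cdk2 for entry into S phase, and Cdca7, an E2F and Myc target that partners Hells, were within the limit over all cells and past it with shares held equal. Ccne2 had 6.45, 26.6 and 11.0 CPM in low pigment and 7.27, 47.1 and 9.63 CPM in high pigment cells, and was 1.08-fold higher over all cells and 1.41-fold higher (1.24 to 1.60) with shares held equal. Cdca7 had 7.19, 16.4 and 8.52 CPM in low pigment and 7.50, 27.1 and 10.2 CPM in high pigment cells, and was 1.16-fold higher over all cells and 1.37-fold higher (1.18 to 1.60) with shares held equal. For both, the widest gap was in S calls. E2f8, an E2F that represses the other E2F targets late in S phase, had 1.75, 23.4 and 13.8 CPM in low pigment and 2.42, 26.9 and 7.65 CPM in high pigment cells, and moved from 1.33-fold lower over all cells to 1.09-fold lower with shares held equal. The low pigment G1 level of E2f8 rests on 19 UMIs.

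By these values 13 genes were lower in high pigment cells past the limit over all cells, and within it at equal shares. This shares-only class held Mcm2, Mcm3, Mcm4, Mcm6, Cdc6, Cdc45, Dtl, Pcna, Rfc2, Prim1, Rrm2, Chaf1b and E2f8. Its name follows the limit: at equal shares all 13 stayed lower, at log2 ratios from −0.29 to −0.08. Their share parts ran from −0.51 to −0.05, the last for Rfc2, which moved only from −0.33 to −0.28. Within S calls 0 of these 13 were lower past the limit, beside 22.3% of all measured genes, and within G1 calls also 0, beside 25.8%. In G2M calls 11 were, beside 25.8%, so the class rests on the weighted sum of the phases and not on each phase. The class was chosen through sums of these same phase values. The counts by phase therefore follow in part from that choice and are a description. The class depends on the all-cell ratios and on the calls. Over all cells Mcm2, Mcm4, Cdc6, Cdc45 and Dtl stayed past the limit under all 6 alternatives that could move those ratios. The rest of the class fell under it in at least 1. With phases called from the 77 other replication genes in place of the authors' calls, 12 of the 13 were lower past the limit, all but Mcm3. Altogether 20 of the 40 genes were lower and 2 higher under these calls, where the share of all measured genes is not given. With phases called again from the 41 genes, or with each gene left out of its own calls, 3 of the 13 were past the limit, namely Cdc45, Rfc2 and Prim1. These rebuilt calls gave 78.3% of cells the authors' phase when made from the 41 genes and 70.0% when made from the other genes, and they put 68.4% and 72.9% of high pigment cells in G2M.

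The 6 genes that were lower with shares held equal were Slbp, Uhrf1, Dscc1, Nasp, Brip1 and Gins2, and they stayed past the limit under all 12 alternatives that could move a single gene's ratio. Fen1 and Exo1 stayed past it on the higher side under the same 12. Pold3, Ccne2 and Cdca7 kept their direction under those 12. Ccne2 and Cdca7 were each past the limit in 11 of them, and not with calls from the other replication genes. Pold3 was past it in 7. It fell under the limit with each set of rebuilt phase calls, with bins of both scores held equal and with the high pigment library's phase weights. The plot of classes by setting shows the counts of the lower genes.

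**Figure D4:**
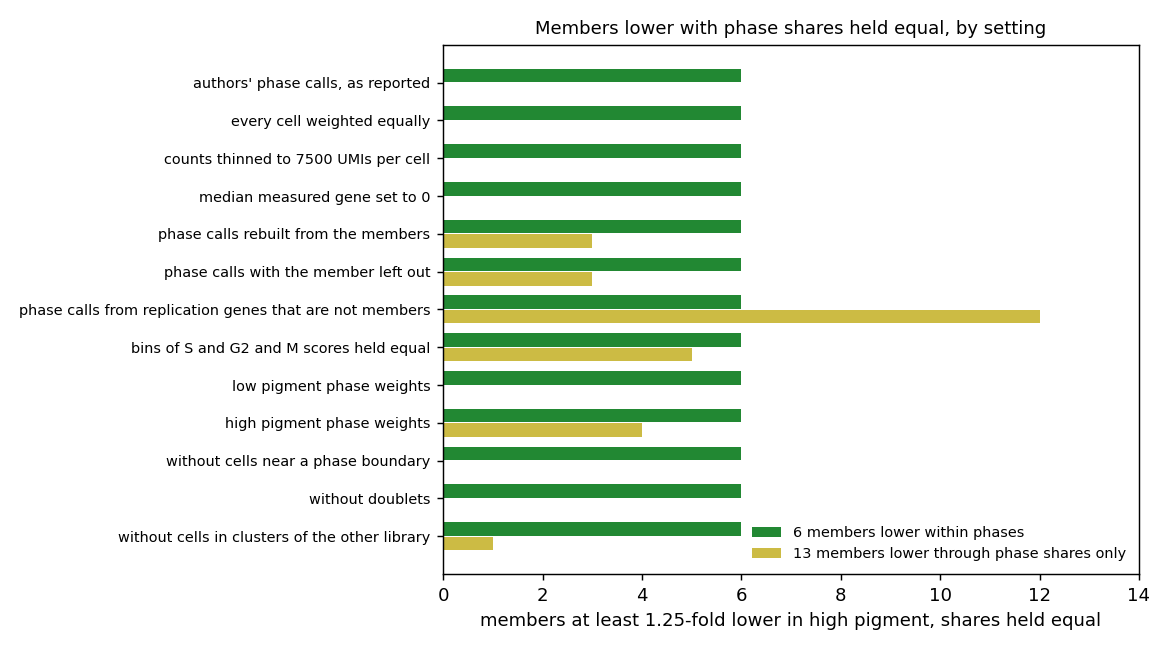
Number of genes (x axis) lower past the limit with phase shares held equal, under the authors' phase calls and under each of 12 alternatives (rows). The genes are the 6 lower within phases and the 13 of the shares-only class, labelled as lower through phase shares only. The first bars stay at 6 in every row, and the second run from 0 to 12, the latter with phase calls from the other replication genes.

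The authors' 4 clusters nearly separated the libraries. Cluster 0 held 1520 high pigment and 36 low pigment cells, cluster 3 held 523 and 19, cluster 1 held 1023 low pigment and 48 high pigment cells, and cluster 2 held 822 and 45. Clusters 0 and 2 were rich in S and G2M calls and clusters 1 and 3 in G1 calls, but in unequal measure. In cluster 2, 59.6% of low pigment cells were S and 0.365% G1, leaving 329 cells called G2M, and in cluster 0, 30.3% of high pigment cells were S, 55.5% G2M and 14.3% G1. Cluster 1 still held 18.9% S calls among its low pigment cells, and cluster 3 held 0.574% among its high pigment cells. Summed RNA of the 41 genes was 4647 CPM in cluster 2, 3067 in cluster 0, 2266 in cluster 1 and 1467 in cluster 3. Since clusters and phase calls come from the same cells, these levels are a description.

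Compared cluster against cluster, most of the genes were lower in high pigment cells. From cluster 2 to cluster 0, 31 of 40 were lower, beside 29.0% of all measured genes, and 0 were higher, beside 12.4%. From cluster 1 to cluster 3, 34 of 40 were lower, beside 20.1%, and 0 were higher, beside 12.5%. Within 1 phase call the gap between these clusters was narrow in S and wide in G2M. Among S calls, summed RNA was 5005 CPM in the 460 cells of cluster 0 and 5523 CPM in the 490 cells of cluster 2, with a median log2 ratio of −0.07 where all measured genes had −0.06. Among G2M calls it was 2467 CPM in 843 cells and 3533 CPM in 329 cells, with a median of −0.53 where all measured genes had −0.11. The S calls of low pigment cluster 1 lay lower than either, at 4236 CPM in 193 cells.

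High pigment cells called G1 lay in clusters with unlike levels of the 41 genes. Of the high pigment G1 calls, 466 cells were in cluster 3 with 1383 CPM of the 41 genes, and 217 were in cluster 0 with 2069 CPM. The low pigment G1 calls were mostly the 719 cells of cluster 1, with 1669 CPM. The median log2 ratio over cluster 1 was −0.26 for G1 calls of cluster 3 and 0.51 for those of cluster 0, where all measured genes had −0.03 and −0.22. Median UMIs per cell moved with these levels, at 9626 in cluster 3, 13831 in cluster 1 and 16219 in cluster 0, and the part of depth in the difference was not tested beyond thinning. On counts thinned to 7500 UMIs per cell the medians were 10, 11 and 15 UMIs of the 41 genes.

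**Figure D5:**
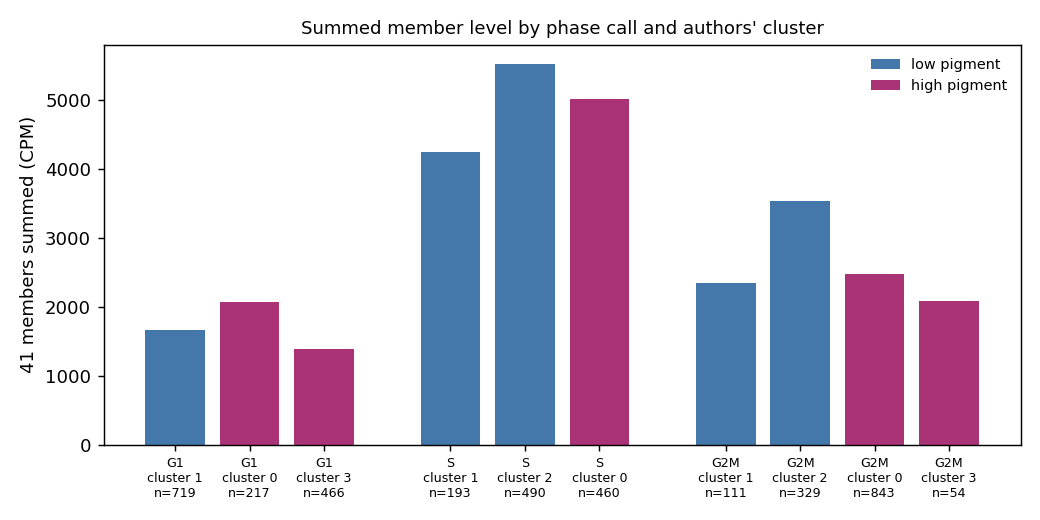
Summed CPM of the 41 genes in each authors' cluster and phase call, for the library that made up most of the cluster. G1 calls stand at 1383 CPM in cluster 3, 1669 in cluster 1 and 2069 in cluster 0, and G2M calls at 2467 CPM in cluster 0 and 3533 in cluster 2.

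Replication genes outside the 41 were taken as a further list of 77 found genes, of which 68 were measured. Over all cells 24 were lower and 5 higher in high pigment cells, and with shares held equal 15 were lower and 3 higher, at median log2 ratios of −0.24 and −0.15. Among all measured genes 23.4% were lower in either comparison and 10.9% and 10.4% higher, so that the lower count at equal shares is near that of all genes. With shares held equal the lowest was Pold1, the catalytic subunit of the lagging strand polymerase, at 1.82-fold lower (1.63 to 2.03). Next came Rpa3, the small subunit of the single-strand binding complex, at 1.75-fold lower (1.60 to 1.92), and Ccne1, the other E-type cyclin, at 1.68-fold lower (1.56 to 1.81). Timeless, the fork protection partner of Tipin, was 1.61-fold lower (1.41 to 1.83) and Rrm2b, the alternative small subunit of ribonucleotide reductase, was 1.47-fold lower (1.34 to 1.61). Highest were Cdk2, the kinase bound by both E-type cyclins, at 1.40-fold higher (1.32 to 1.48), and the GINS subunit Gins4, at 1.31-fold higher (1.22 to 1.41). The histone chaperone Asf1a, the Cdc7 partner Dbf4 and the checkpoint kinase Atr stood 1.28-fold, 1.24-fold and 1.23-fold higher. Some genes of 1 complex or family, picked out after their values were seen, lay on opposite sides: Gins2 was lower and Gins4 higher, Pold1 was lower and Pold3 higher, and Ccne1 was lower and Ccne2 higher in high pigment cells with shares held equal, each past the limit.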

How the data were processed

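UMI counts per gene and barcode were used as the authors deposited them, made with Cell Ranger 6.1.2 on mm10 per the submitters' processing notes. Depth equalisation at aggregation, the use of strand and the treatment of reads with several matches: not given in the sources used here. Phase calls and clusters, the S and G2M score and the percent of mitochondrial UMIs per cell came from the authors' deposited cell table of 4036 cells. The gene lists behind the deposited score columns are not given there.

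Counts were summed over each library's cells, or its cells of a phase or cluster, and scaled to CPM. Ratios have exact conditional binomial 95% intervals, and ratios with phase shares held equal have delta-method intervals from Poisson counts. With 1 library per group no test was made. Genes were called by size, at 25% more in 1 library than in the other, among 7849 genes with a mean of at least 10 CPM. A count of 3 UMIs, the detection limit, was 0.0925 CPM in low pigment and 0.104 CPM in high pigment cells. The members, lists and rules were chosen with earlier results of these data known. Values by phase are given for up to 3 genes per role with the largest ratio at equal shares. They are also given for every gene of the shares-only and masked classes. Masked genes were past the limit at equal shares and not over all cells. Among other replication genes the 5 lowest and 5 highest are named.

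Doublets marked by Scrublet in scanpy 1.11.5 were 18 low pigment cells (0.947%) and 15 high pigment cells (0.702%), and were kept. Gene positions follow GENCODE M21 (mm10), where 14 of the 41 genes overlap a gene on the opposite strand, 6 one on the same strand, and 3 have named pseudogenes. The code was tested on simulated counts. Some marker results are not reported here.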

Additional observations from a re-analysis of the deposited data

How the results depend on the processing

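The counts over all cells and with phase shares held equal, and the medians, were recomputed under those of 15 alternatives that could change them (cell weighting, depth, scaling, CPM filter, fold, phase calls, phase weights, cells), and 87 of 103 values stayed close, counts within 1.5 times and medians within the typical counting interval. Within that rule the count of 19 genes lower over all cells became 13 with every cell weighted equally. It became 14 with the median measured gene set to 0 and 15 after thinning to 7500 UMIs per cell. Among genes with at least 50 CPM, 10 were lower and 0 higher over all cells, and 3 and 0 with phase shares held equal. At 1.5-fold these counts were 6, 0, 3 and 1. The G1 median of 0.20 turned to −0.13 with phases called again from the 41 genes, to −0.16 with each gene left out of its own calls and to −0.39 with calls from other replication genes. Under the last of these calls the median at equal shares was −0.32, with 20 genes lower and 2 higher. With bins of both scores held equal 11 were lower, and with the high pigment library's phase weights 10 were. The matching shares of all measured genes are not given at these settings, so these counts are not set against the matrix. Counts within phases, between clusters and over the other replication genes were not recomputed. The cause of these shifts was not tested. Of 720 ratios of single genes, 589 moved by less than their counting interval and 131 by more, and none that was past the limit changed sign. No paired analysis was possible because each group has 1 library. Depth limits the scarce genes: the smallest sum of a measured gene was 281 UMIs in a library and 19 in a phase call, and intervals spanned a median factor of 1.07 each way over all cells and 1.20 in G1 calls.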
